A study of Mus musculus with 6 samples.

Results

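The 10 genes described here encode proteins that bring fatty acids into cells, bind or store them, and switch on the fat cell programme: Fabp3, Fabp4, Fabp5, Cd36, Lpl, Pparg, Ppard, Cebpa, Cebpb and Plin2. They were taken as a set of known function, and every probe set annotated to one of these symbols alone was used, under the current symbol Plin2 for the gene once called Adfp. This gave 20 of the 45037 probe sets tested, and 1 further probe set shared by Ppard and another gene was left out. C2C12 cells, a clonal mouse myoblast line derived from a satellite cell of adult muscle, were compared in 2 states with 3 arrays each. Differentiated cultures had been kept in 2% horse serum and were harvested on day 6, and proliferating cultures were kept in 20% fetal calf serum. The groups thus differ in the kind and amount of serum as well as in state. Differences due to serum and to differentiation cannot be told apart here. By the study's methods, an array's RNA mixed material from several plates and from cultures started on different days, so that arrays of a group differ as mixtures do and not as single cultures. Only part of the cells fuse into myotubes under low serum, and the differentiated samples therefore also hold mononucleated cells. In such bulk RNA, fewer cells of a type and less RNA per cell cannot be told apart.

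Lipoprotein lipase releases fatty acids from circulating triglycerides, CD36 helps them across the plasma membrane, and fatty acid binding proteins carry them through the cytosol. Perilipins coat the droplets in which triglycerides are stored. Fatty acids are also ligands of the PPAR nuclear receptors, which bind DNA as partners of the retinoid X receptors. In preadipocytes, C/EBPβ and C/EBPδ act early and induce C/EBPα and PPARγ, which then maintain each other and the genes of the mature fat cell. Skeletal muscle uses the same uptake proteins mainly to feed fatty acid oxidation, with FABP3 as its main binding protein, whereas FABP4 is the form typical of fat cells.

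RefSeq promoter entries (build GRCm38.p6) were matched by symbol for 7 of the 10 genes, with 9 start sites in all, 3 of them of Pparg. The 250 bases before the start are shown for a pair of genes that were higher in differentiated cells (Fabp3, Cd36) and a pair that were lower (Plin2, Pparg). The letters known from PPAR, E-box and C/EBP sites can thus be set beside the measured direction. For Pparg only start 3 is shown, and the measured signal was not assigned to any of its starts. Its call was also close to the threshold and was lost in 10 of 14 alternative analyses. The regions are chr4:130308488-130308737 on the plus strand for Fabp3, chr5:17835897-17836146 on the minus strand for Cd36, chr4:86670060-86670309 on the minus strand for Plin2 and chr6:115421816-115422065 on the plus strand for Pparg. Each is written 5′ to 3′ in lower case, and capitals mark matches to AGGTCA (the half-site of PPAR and RXR), CANNTG (the E-box of basic helix-loop-helix factors) or TTGCNNAA (letters of the C/EBP site) on either strand.
Fabp3: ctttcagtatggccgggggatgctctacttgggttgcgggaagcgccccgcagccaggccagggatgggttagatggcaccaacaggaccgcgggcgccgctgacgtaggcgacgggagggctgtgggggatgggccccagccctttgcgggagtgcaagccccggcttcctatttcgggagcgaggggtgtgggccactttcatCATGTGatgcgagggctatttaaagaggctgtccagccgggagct
Cd36: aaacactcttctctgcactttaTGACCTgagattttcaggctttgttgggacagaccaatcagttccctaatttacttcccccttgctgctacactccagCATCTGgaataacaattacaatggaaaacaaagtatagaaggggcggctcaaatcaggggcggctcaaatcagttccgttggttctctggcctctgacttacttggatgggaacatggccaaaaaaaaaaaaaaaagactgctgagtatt
Plin2: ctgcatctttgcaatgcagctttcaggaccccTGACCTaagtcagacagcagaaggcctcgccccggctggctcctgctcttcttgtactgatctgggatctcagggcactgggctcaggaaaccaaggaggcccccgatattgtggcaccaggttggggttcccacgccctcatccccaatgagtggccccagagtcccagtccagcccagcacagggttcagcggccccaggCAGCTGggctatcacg
Pparg, start 3: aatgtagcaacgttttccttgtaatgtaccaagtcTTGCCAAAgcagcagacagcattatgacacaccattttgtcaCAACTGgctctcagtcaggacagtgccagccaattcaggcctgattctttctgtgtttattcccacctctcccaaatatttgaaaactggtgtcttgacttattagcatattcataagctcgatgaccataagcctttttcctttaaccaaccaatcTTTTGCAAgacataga

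No printed match overlapped another. AGGTCA was found in 4 of the 9 entries, among them Cd36, with the complement TGACCT 223 to 228 bases before the start, and Plin2, with the same letters 213 to 218 bases before it. Of 32851 mouse promoter entries of this length, 14% hold these letters. The E-box letters stood in 6 of the 9 entries, against 66.2% of all entries, and lay 40 to 45 bases before the start of Fabp3 and 11 to 16 bases before that of Plin2. TTGCNNAA was found only at start 3 of Pparg among the 9 entries, at 208 to 215 and at 9 to 16 bases before it, against 9.56% of all entries. The full repeat of PPAR and RXR, AGGTCA followed by 1 base of any kind and AGGTCA again, was in none of the 9 and in 0.0335% of all entries. The other entries with AGGTCA were start 1 of Pparg, at 23 to 28 bases before it, and start 2 of Pparg, at 4 to 9 bases. AGGTCA letters thus stood before a gene that was higher (Cd36) and before genes that were lower (Plin2 and Pparg). A match is a description of these letters only.

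The values are linear array signals in arbitrary units, and they may be compared between arrays but not between probe sets. Differences are given as log2 of the signal plus 15, differentiated minus proliferating, with the standard error from limma, and the threshold for a call was an adjusted p (Benjamini-Hochberg, over all probe sets) under 0.05. A signal was read as background where it did not exceed the brightest of 27 bacterial control probe sets on its own array, which lay between 51.9 and 87.0. Where 1 group lay wholly at background, only a lower bound of the fold is given. The median signal ran from 72.3 to 81.4 on the differentiated arrays and from 68.0 to 73.0 on the proliferating arrays. All 7 muscle identity genes were higher in differentiated cells, among them Acta1, the skeletal actin, by 6.56 on the log2 scale, Myh3, an embryonic myosin, by 6.09, Tnnc1, a troponin, by 5.95, and Myog, the myogenic factor myogenin, by 5.20. All 3 proliferation genes were lower (Mki67 at -3.79, Top2a at -3.13 and Aurkb at -2.90).

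Of the 20 probe sets, 7 were higher in differentiated cells, 4 were lower and 9 were not called. On the whole array 6.14% of probe sets were called higher and 6.43% lower, so that the shares in the set, 35% and 20%, exceed those of the array, as a description of genes chosen with earlier results known. The median log2 difference was 0.24 over the 20 probe sets and 0.053 over all probe sets. With each gene represented by its brightest probe set, Fabp3, Cd36, Lpl, Cebpa and Cebpb were higher, Fabp5, Pparg and Plin2 were lower, and Fabp4 and Ppard were not called. Among the 18193 genes of the array, 8.67% were called higher and 9.05% lower by the same rule. The groups did not overlap in 13 probe sets, 9 higher and 4 lower, where 14.9% and 12.3% of all probe sets had such separate groups. In 14 probe sets, of 9 genes, every array of at least 1 group lay above the controls, and Fabp4 was the gene without such a probe set.

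**Figure D1:**
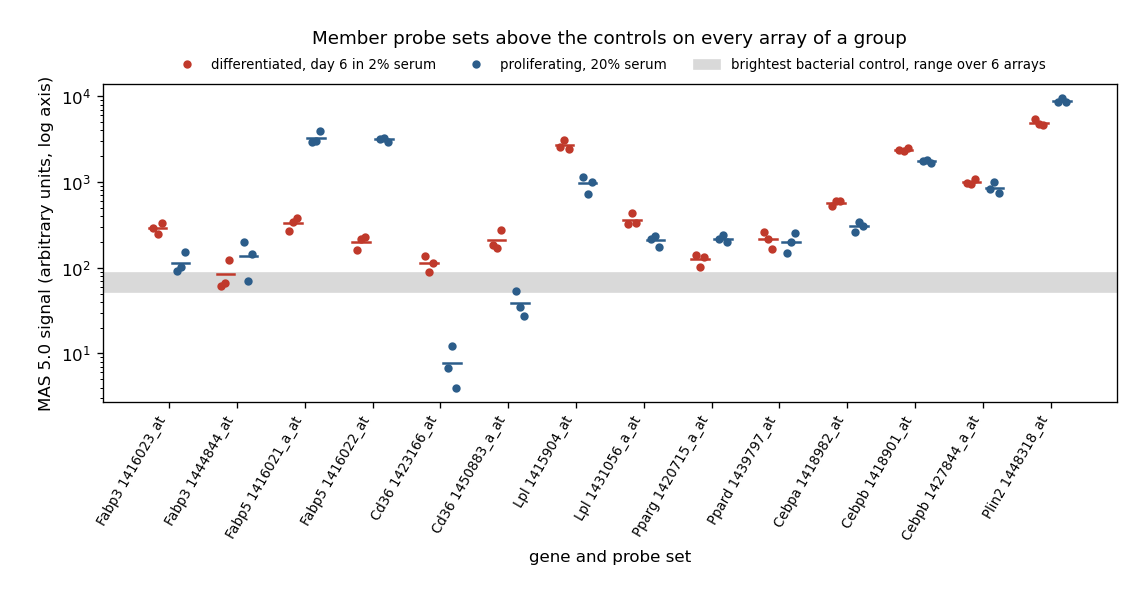
Signal (arbitrary units, log axis) of the 14 probe sets with every array of a group above the bacterial controls, with 1 point per array, differentiated left of proliferating, lines at the group means and a grey band over the range of the brightest control. Fabp5 differs most among the probe sets whose groups both lie above the band, with all differentiated arrays at 383.2 or less and all proliferating arrays at 2946.2 or more, while the points of Ppard 1439797_at overlap.

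Lpl and Cd36 were both higher in differentiated cells. Lpl, which encodes lipoprotein lipase, had signals of 2552.5, 3117 and 2439.8 in differentiated cells at probe set 1415904_at, against 1160.8, 724.4 and 1009.4 in proliferating cells. The lowest differentiated array was above the highest proliferating array by more than the spread within either group. The difference was 1.49 (standard error 0.16, adjusted p = 2.58e-05), with means of 2703 ± 363 in differentiated cells and 965 ± 222 in proliferating cells (SD, n = 3 each). The second Lpl probe set, 1431056_a_at, gave 326.2, 432.5 and 335.6 in differentiated cells, against 214.9, 237.8 and 173.7 in proliferating cells. It was also higher without overlap, by 0.76 (standard error 0.18, adjusted p = 0.0138). That call was lost without differentiated replicate 2 (0.64, adjusted p = 0.0804) or proliferating replicate 3 (0.64, adjusted p = 0.0553).

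Cd36, which encodes the fatty acid translocase, was at background on every proliferating array at all 3 of its probe sets. At 1450883_a_at the signals were 183.3, 172 and 276.7 in differentiated cells, against 53, 34.7 and 27.5 in proliferating cells. All differentiated arrays lay above the controls, and the transcript was at least 3.11-fold higher there (adjusted p = 0.00147). At 1423166_at the signals were 136.6, 89.8 and 112.5 in differentiated cells, against 6.7, 12.3 and 4 in proliferating cells, at least 1.68-fold higher (adjusted p = 0.00229). The third probe set, 1450884_at, read 52.4, 52.5 and 64.3 in differentiated cells, against 3, 22.7 and 29.5 in proliferating cells. Its groups did not overlap, but only 2 differentiated arrays were above their controls and the difference was not called (adjusted p = 0.159).

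The 3 fatty acid binding proteins differed from one another. Fabp3, the heart and muscle form, had signals of 288, 249.5 and 333.7 in differentiated cells at 1416023_at, against 91.8, 101.4 and 151.8 in proliferating cells. The groups did not overlap, and the difference was 1.25 (standard error 0.24, adjusted p = 0.00287). A second Fabp3 probe set, 1444844_at, did not show this, with 60.8, 65.6 and 124.7 in differentiated cells, against 199.1, 70.5 and 145.1 in proliferating cells. Its groups overlapped and its difference of -0.59 was not called (standard error 0.41, adjusted p = 0.455), so that the gene's 2 probe sets disagree in sign.

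Fabp5, the epidermal form found in many cell types, was lower in differentiated cells, with the largest difference among the 10 genes where both groups lay above the controls. At 1416022_at the signals were 159.3, 213.7 and 228.3 in differentiated cells, against 3209.9, 3288.8 and 2946.2 in proliferating cells, a 14.8-fold difference (log2 -3.89, standard error 0.13, adjusted p = 1.24e-09). At 1416021_a_at they were 271.4, 345.9 and 383.2 in differentiated cells, against 2958.7, 2982.7 and 3959.5 in proliferating cells, a 9.51-fold difference (log2 -3.25, standard error 0.15, adjusted p = 1.45e-08). Both probe sets separated the groups widely, and all differentiated arrays stayed above their controls. Fabp4, the adipocyte form, was not called at any of its 4 probe sets. Its signals ran from 3.5 to 81.9 on the differentiated arrays and from 8.7 to 78.2 on the proliferating arrays, and at 2 probe sets both groups were at background. The highest Fabp4 values came from 1425809_at, at 53, 68.2 and 81.9 in differentiated cells, against 78.2, 12 and 9 in proliferating cells. The groups overlapped there, and 2 of the differentiated arrays were above their controls (adjusted p = 0.313).

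The profiles most like those of the largest called differences were looked up over the 6 arrays, by the root mean square distance of centred log2 signals. Only probe sets with every array of both groups above the controls were used, which left out Cd36. Nearest to Fabp5 1416022_at were Uhrf1 (distance 0.093), Ube2c (0.17) and Birc5 (0.19). Nearest to Fabp5 1416021_a_at were Gins2 (0.15), Selenoh (0.15) and Hmgb2 (0.18). Nearest to Lpl 1415904_at were Mef2a (0.071), Plpp3 (0.072) and Zc3h6 (0.075). With 2 groups, a small distance mainly reflects a similar difference between them.

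Plin2, which encodes the droplet coat protein perilipin 2, was lower in differentiated cells. The signals were 5409.3, 4735 and 4669.9 in differentiated cells, against 8585.1, 9453 and 8655.3 in proliferating cells. All 3 differentiated arrays were well below the proliferating ones. The difference was -0.85 (standard error 0.10, adjusted p = 7.69e-05), and it lay between -0.71 and -0.92 under all alternatives tried.

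The adipogenic transcription factors did not share a direction. Cebpa, which encodes C/EBPα, had signals of 523.3, 603.1 and 596.2 in differentiated cells, against 261.7, 344.4 and 304.5 in proliferating cells. It was higher without overlap, by 0.89 (standard error 0.14, adjusted p = 0.00087). Cebpb, which encodes C/EBPβ, read 2350.9, 2306 and 2496.3 in differentiated cells at 1418901_at, against 1781.9, 1826.6 and 1683.7 in proliferating cells. The groups were separate and the difference was small, 0.43 (standard error 0.089, adjusted p = 0.00544). The second Cebpb probe set, 1427844_a_at, gave 986.5, 941.3 and 1086.4 in differentiated cells, against 825.3, 989.9 and 745.6 in proliferating cells. There the groups overlapped and the difference of 0.24 was not called (adjusted p = 0.276).

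Pparg, which encodes the master regulator of fat cell formation, was lower in differentiated cells, close to the threshold. The signals were 141, 100.9 and 132.9 in differentiated cells, against 215.7, 241.2 and 200.6 in proliferating cells. The groups did not overlap, and the difference was -0.75 (standard error 0.23, adjusted p = 0.0477). Leaving out any one of the 6 arrays ended the call, with differences of -0.62 to -0.84 and adjusted p-values of 0.0694 to 0.150. With the replicate number as a block the adjusted p was 0.0810. Ppard, which encodes the PPAR form widespread in muscle, read 261.1, 217.9 and 164.3 in differentiated cells at 1439797_at, against 150, 199.2 and 252.2 in proliferating cells. The groups overlapped throughout and the difference of 0.10 was not called (standard error 0.24, adjusted p = 0.879). The other Ppard probe set, 1425703_at, was at background on all 6 arrays.

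**Figure D2:**
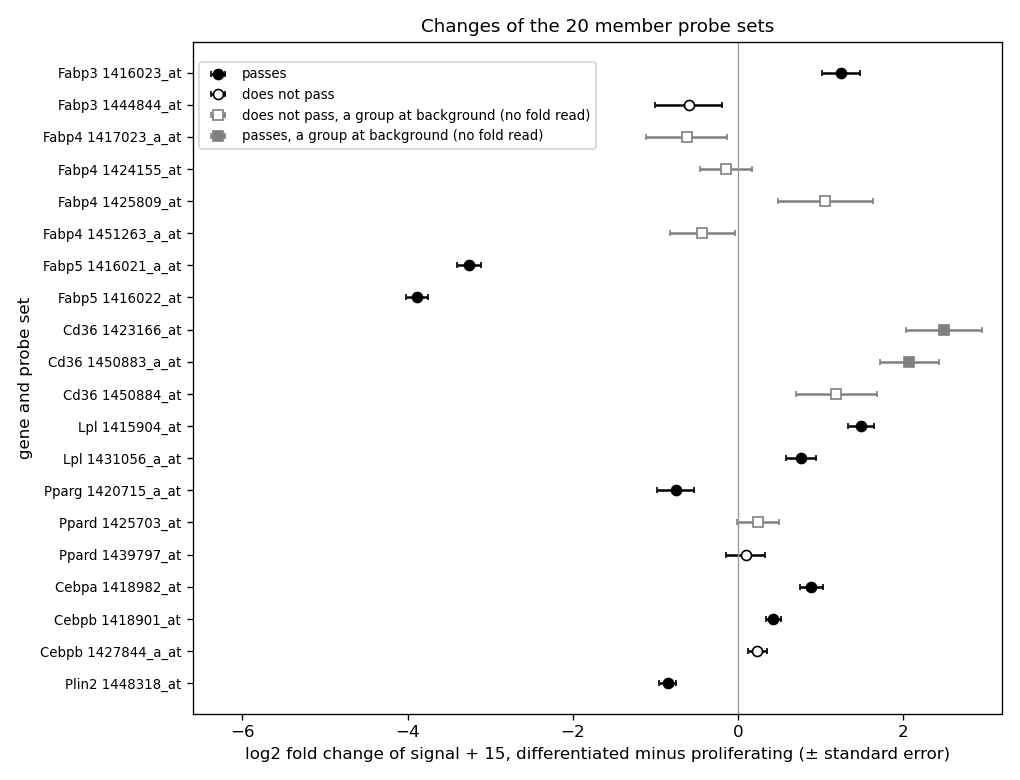
Log2 difference of the signal plus 15, differentiated minus proliferating, for each of the 20 probe sets, with bars of 1 standard error from limma. Filled symbols pass at an adjusted p under 0.05, and grey squares mark probe sets with a group at background, whose fitted size is not read as a fold. Fabp5 lies farthest to the left at -3.25 and -3.89, and Lpl 1415904_at and Fabp3 1416023_at lie to the right at 1.49 and 1.25.

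Other genes of fatty acid transport and activation were measured by their brightest probe set, and 4 of 12 were higher, 3 lower and 5 not called. Their median difference was 0.19, against 0.059 over all genes, of which 8.67% were called higher and 9.05% lower. Acsl1, also listed, has no probe set of its own in the annotation. Acsl6, an acyl-CoA synthetase that activates long-chain fatty acids, had signals of 286.2, 312.9 and 418.8 in differentiated cells, against 22, 8.5 and 55.2 in proliferating cells, where every array was at background. It was at least 5.05-fold higher (adjusted p = 0.000149). Acsl3, a synthetase of the same family, was higher by 1.38 (standard error 0.11, adjusted p = 3.53e-06), with 2478 ± 56.7 in differentiated cells and 950 ± 156 in proliferating cells (SD, n = 3 each). Angptl4, an inhibitor of lipoprotein lipase, read 446.6, 288.8 and 421.8 in differentiated cells, against 1158.5, 1363.1 and 1168.7 in proliferating cells. Its difference of -1.66 (standard error 0.16, adjusted p = 1.03e-05) ran opposite to that of Lpl. Vldlr, a lipoprotein receptor, was higher by 1.03 (adjusted p = 0.0115), but not called without differentiated replicate 1 (adjusted p = 0.0727). Of all probe sets of these genes, the same call was made by 1 of 2 for Acsl6, 2 of 3 for Acsl3, 1 of 2 for Angptl4 and 3 of 6 for Vldlr, and none was called in the other direction. The probe sets of Acsl3, Angptl4 and Vldlr given here have the suffix s or x, as do those of Hadh and Acaa2, by which the maker marks probes shared with other transcripts.

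On the oxidation side of muscle fatty acid handling, 1 of 18 genes was higher, 3 were lower and 14 were not called, where 8.67% of all genes were higher and 9.05% lower. The median difference was 0.0030. Cpt1a and Acaa2, which also act in oxidation and were called lower, stand in the list of PPAR targets and are not among the 18. Etfb, a subunit of the flavoprotein that takes electrons from the acyl-CoA dehydrogenases, averaged 1371 ± 105 in differentiated cells and 2510 ± 579 in proliferating cells (SD, n = 3 each), a difference of -0.84 (adjusted p = 0.00106). The long-chain dehydrogenase Acadl (-0.36, adjusted p = 0.0305) and the hydroxyacyl-CoA dehydrogenase Hadh (-0.34, adjusted p = 0.0202) were lower, and the very long-chain dehydrogenase Acadvl was higher (0.40, adjusted p = 0.0287). Each of these last 3 calls was lost on leaving out several single arrays, and the count of 3 lower fell to 1 without proliferating replicate 3 or without differentiated replicate 1 or 2. Acadl was called at 1 of its 2 probe sets and Hadh at 1 of its 3, and their others were not called. Cpt1b, the muscle form of the enzyme that admits fatty acids to mitochondria, has no probe set of its own in the annotation. Cpt1a, its liver form, named after its values were seen, averaged 940 ± 33.5 in differentiated cells and 1575 ± 47.4 in proliferating cells (SD, n = 3 each), a difference of -0.74 (adjusted p = 0.000119).

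Among 18 genes of lipid droplets and triglyceride turnover, 3 were higher, 1 was lower and 14 were not called. The shares over all genes were 8.67% higher and 9.05% lower. Fitm2, which helps droplets form at the endoplasmic reticulum, had signals of 684.1, 689.8 and 605.1 in differentiated cells, against 215.8, 219.5 and 231.4 in proliferating cells. It was higher by 1.51 (standard error 0.13, adjusted p = 6.27e-06), in the opposite direction to Plin2. Plin4, another perilipin, was lower like Plin2, with signals of 110.1, 97.6 and 127.1 in differentiated cells, against 357.6, 257.7 and 308 in proliferating cells, a difference of -1.35 (adjusted p = 0.000827). Gpam, the first enzyme of glycerolipid synthesis, was higher by 0.76 at its brightest probe set (adjusted p = 0.000539), and its other probe set was not called. Pnpla2, the main triglyceride lipase, was higher by 0.55 at its brightest probe set (adjusted p = 0.0308), while its other probe set was called lower. That other probe set did not lie above the controls on every array of either group. The call of its brightest probe set was lost without proliferating replicate 1 or 3 or any one of the differentiated arrays (adjusted p = 0.0682 to 0.121).

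**Figure D3:**
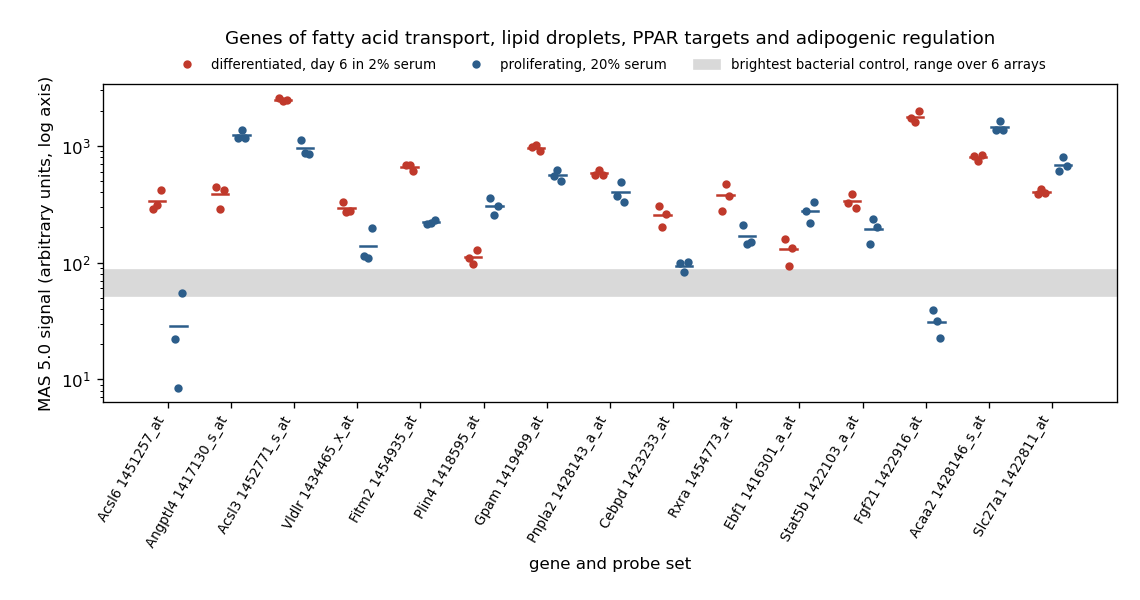
Signal (arbitrary units, log axis) of 15 genes of fatty acid transport, lipid droplets, PPAR targets and adipogenic regulation, with 1 point per array, differentiated left of proliferating, lines at the group means and a grey band over the range of the brightest bacterial control. Fgf21 and Acsl6 lie at background on all proliferating arrays and above the controls on all differentiated arrays, and Angptl4, Plin4, Ebf1, Acaa2 and Slc27a1 are lower in differentiated cells.

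Of 9 genes known as PPAR targets, 1 was higher, 4 were lower and 4 were not called, with a median difference of -0.19. Over all genes, 8.67% were higher and 9.05% lower. Fgf21, a hormone of the fasting response, had signals of 1742.6, 1607.3 and 1982.4 in differentiated cells, against 38.9, 31.7 and 22.7 in proliferating cells. All proliferating arrays were at background, and the transcript was at least 26.7-fold higher (adjusted p = 1.40e-09). Besides Angptl4 and Cpt1a, Acaa2, the last enzyme of mitochondrial β-oxidation, was lower (-0.85, adjusted p = 0.000138), and so was Slc27a1, a fatty acid transport protein (-0.75, adjusted p = 0.00172). Slc27a1 thus differed in the opposite direction to Cd36.

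Of 27 further regulators of adipogenesis, 7 were higher, 2 were lower and 18 were not called, where 8.67% of all genes were higher and 9.05% lower. The list was not divided into factors that promote and factors that restrain adipogenesis, so the counts give no direction of that programme. Klf3 (0.48), Klf5 (0.39), Srebf1 (0.38) and Nr3c1 (0.39), named after their values were seen, were among those called higher. Cebpd, which encodes C/EBPδ, had signals of 305.4, 200.1 and 260.4 in differentiated cells, against 99.3, 82.4 and 101.1 in proliferating cells, a difference of 1.29 (standard error 0.24, adjusted p = 0.00284). Rxra, the partner of the PPARs, was higher by 1.09 (standard error 0.22, adjusted p = 0.00494), with 376 ± 97.0 in differentiated cells and 167 ± 36.4 in proliferating cells (SD, n = 3 each). Of the other C/EBP genes in the list, named after their values were seen, Cebpg was not called (0.27, adjusted p = 0.266) and Ddit3, which encodes the C/EBP homologous protein, was lower (-0.52, adjusted p = 0.00356). Ebf1, an early B-cell factor that promotes adipogenesis, was lower (-1.02, adjusted p = 0.0135), and Stat5b, a cytokine-activated factor, was higher (0.76, adjusted p = 0.0273). Of all probe sets of these genes, the same call was made by 1 of 2 for Cebpd, 1 of 3 for Rxra, 1 of 5 for Ebf1 and 1 of 2 for Stat5b, and the others were not called. The count of 7 fell to 3 without proliferating replicate 1 or differentiated replicate 2 and to 4 without proliferating replicate 3, and Ebf1 was not called without proliferating replicate 1 or 3 (adjusted p = 0.0558 and 0.0802). Stat5b lost its call when either of these arrays, or differentiated replicate 1 or 2, was left out (adjusted p = 0.0567 to 0.128).

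None of the 13 measured adipocyte markers was called higher or lower by limma, and 1, Gpd1, had an unadjusted p under 0.05. Over all genes, 8.67% were called higher and 9.05% lower. Of the 16 markers listed, Plin1, Cfd and Adrb3 have no probe set of their own in the annotation and were not measured. Lep, Cidec, Aqp7, Trarg1 and Ucp1 were at background in both groups, and 4 of the 13 were above the controls on every array of a group. Adipoq, the adipocyte hormone adiponectin, named after its values were seen, read 28.7, 22 and 59.7 in differentiated cells, against 2.7, 7 and 47.3 in proliferating cells, with a single differentiated array above its control. The brightest marker, Pnpla3, gave 165.2, 247.2 and 325.8 in differentiated cells, against 149.5, 200.5 and 171.6 in proliferating cells, with overlapping groups (0.43, adjusted p = 0.352). Gpd1, a glycerol phosphate dehydrogenase also used in muscle, named after its values were seen as well, gave 137.3, 169.8 and 123.8 in differentiated cells, against 102.6, 55.4 and 43.3 in proliferating cells (1.01, adjusted p = 0.101). It passed with dim probe sets left out (adjusted p = 0.0383). The summed signal of the markers was 846.5 to 1165.7 on the differentiated arrays and 673.5 to 811.1 on the proliferating arrays. These sums hold much background, and the array medians also ran from 72.3 to 81.4 in differentiated cells and 68.0 to 73.0 in proliferating cells. They are not read as a difference in the markers.

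**Figure D4:**
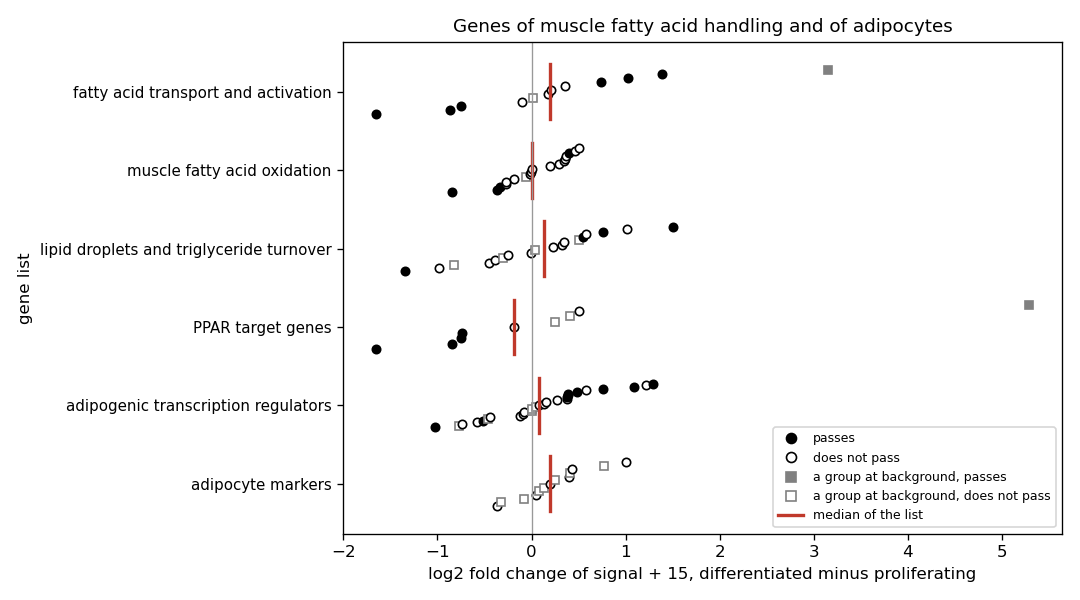
Log2 difference of the signal plus 15, differentiated minus proliferating, for each gene of 6 lists by its brightest probe set, with red lines at the list medians. Filled symbols pass at an adjusted p under 0.05 and squares mark genes with a group at background. The medians lie between -0.19 for the PPAR targets and 0.20 for the adipocyte markers, and no adipocyte marker passes.

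Markers of other cell types were mostly not called, where 8.67% of all genes were called higher and 9.05% lower. Of the 5 preadipocyte and fibroblast markers, Pdgfra was higher (1.24, adjusted p = 0.0226), a call lost when any one of the differentiated arrays was left out. It was called at 1 of its 3 probe sets, and the others were not called. Thy1 had the largest difference in the other direction (-1.02), but it was not called and lay at background in both groups. Ly6a, also listed, has no probe set of its own in the annotation. The summed signal of these markers was 468.9 to 485.0 in differentiated cells and 217.2 to 395.5 in proliferating cells. Of 8 endothelial markers none was called by limma, and 1, Vwf (-1.07), had an unadjusted p under 0.05. Their sums were 420.6 to 620.6 in differentiated cells and 367.7 to 473.8 in proliferating cells, with Pecam1, Emcn and Vwf at background. The brightest of them, Gpihbp1, which holds lipoprotein lipase at the capillary wall, was not called (0.36, adjusted p = 0.550). Of 6 macrophage markers, Adgre1 was higher (0.87, adjusted p = 0.0494), a call lost on leaving out any array. The macrophage sums were 642.7 to 755.4 in differentiated cells and 463.5 to 633.5 in proliferating cells. Above the controls on every array of a group were 2 of the 5 preadipocyte, 2 of the 8 endothelial and 3 of the 6 macrophage markers. Like those of the adipocyte markers, these sums are not read as differences. The samples were cultures of the C2C12 myoblast line, and these marker signals are not read as the presence of such cells. The part of myotubes and of mononucleated cells in the levels of Cd36 and Lpl was not tested.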

How the data were processed

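Transcript levels were measured on 6 Affymetrix Mouse Genome 430 2.0 arrays, 3 of differentiated and 3 of proliferating C2C12 cells. The authors deposited intensity values on a linear scale, 1 per probe set and array, made with MAS 5.0. Their own testing used GCRMA values and a Bayesian regularized test, and GCRMA could not be repeated from these signals. The 64 control probe sets among 45101 were set aside. Signals plus 15 (about the 20th percentile of all values) were taken to log2 with no further normalization, since array medians differed by at most 0.259, and compared with limma (version 3.58.1, R 4.3.3; lmFit and eBayes with trend), 2-sided, with Benjamini-Hochberg adjustment over all 45037 probe sets. Python 3.11.15, pandas 2.3.3 and numpy 2.4.6 were used for tables. The procedure was tested on simulated data. Genes were named from the platform annotation, in which 34945 probe sets have 1 symbol, 932 several and 9160 none, and promoters were taken from RefSeq.

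The genes and lists were chosen with earlier results of these data known, so no p-value was adjusted over a list alone. All probe sets of the 10 genes are named, and from each list up to 4 called genes with the largest change that lie above the controls, or the brightest gene of a marker list with no call, each gene standing for its brightest probe set. Arrays of the same replicate number were checked for pairing. Over all probe sets, their deviations from the group means correlated at 0.012, 0.00066 and 0.0094, so they were not treated as pairs. This check takes in many dim probe sets, so it cannot exclude a pairing. Alternatives tried were quantile or 75th percentile normalization, other pseudocounts, a filter on dim probe sets, eBayes without trend, the regularized test, a replicate block, leaving out each array in turn and averaging the probe sets of a gene. With 3 arrays against 3 an exact permutation test cannot go below p = 0.1, so none was used, and the number of arrays limits the precision.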

Additional observations from a re-analysis of the deposited data

How the results depend on the processing

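Of the 11 called probe sets of the 10 genes, 8 were called under every one of 14 alternatives; the exceptions were Pparg (lost in 10), Lpl 1431056_a_at (lost in 3) and Cebpb 1418901_at (lost without trend, adjusted p = 0.181). No difference of a called probe set reversed. Without trend, Etfb, Gpam, Rxra, Slc27a1, Vldlr, Acadvl, Acadl, Hadh, Pnpla2, Ebf1, Stat5b, Crabp2, Pdgfra and Adgre1 were also no longer called. By the counts of their lists, the same held for Acsl4 and Ddit3. With eBayes without trend, 1367 probe sets of the array were higher and 1302 lower. Leaving out single arrays gave 1950 to 2396 higher and 2304 to 2542 lower probe sets on the array, and 6 to 7 higher and 3 lower among the 20. The number of fatty acid oxidation genes called higher was 0 to 1 when single arrays were left out, 0 after scaling to the 75th percentile, without trend, with the regularized test at either threshold and with the replicate block, and 2 with probe sets averaged. The number called lower was 0 without trend and 1 with quantile normalization, against 3 as reported. The number of adipocyte markers called higher was 1 (Gpd1) with dim probe sets left out or with the regularized test at an unadjusted p under 0.05 and 1.5-fold, a setting chosen after seeing the data, and 0 when any single array was left out. The regulators of adipogenesis called higher numbered 1 without trend or with probe sets averaged, and 4 with the regularized test. Those called lower, Ebf1 and Ddit3 as reported, numbered 0 without trend or with probe sets averaged. With the replicate block, 2580 probe sets of the array were higher and 2707 lower, and 7 and 3 of the 20; Pparg, Acadvl, Acadl and Adgre1 were then not called. Scaling to the 75th percentile gave 2439 higher and 3209 lower, without Acadvl, Pnpla2 and Adgre1 among the calls. Fitted sizes for Cd36 moved with the pseudocount, from 1.50 to 4.01 at 1423166_at, and are not given as folds. Signals near the bacterial controls limit what can be said of Fabp4, Cd36 in proliferating cells and the adipocyte markers.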

Other observations

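Other lipid and retinoid binding proteins of the same protein family were mostly dim: of 8 measured, 2 were called, both higher, and 4 were at background in both groups. Over all genes, 8.67% were called higher. Crabp1, a cytosolic binding protein of retinoic acid, had signals of 269.9, 232.1 and 217.8 in differentiated cells, against 29.8, 8.4 and 7.1 in proliferating cells. Every proliferating array was at background, and the transcript was at least 3.61-fold higher (adjusted p = 0.000206 from limma). Crabp2, the second retinoic acid binding protein, read 892.1, 713.1 and 907.9 in differentiated cells, against 513.9, 627.4 and 550.5 in proliferating cells. It was higher without overlap, by 0.56 (adjusted p = 0.0117 from limma), a call lost without proliferating replicate 1 or without differentiated replicate 1 or 3.

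The acyl-CoA synthetases differed among themselves, and Acsl4 and Acsl5 are named here after their values were seen. Acsl4 was higher (0.74), like Acsl3 and Acsl6, with 1306 ± 71.8 in differentiated cells and 787 ± 155 in proliferating cells (SD, n = 3 each). Acsl5 was lower (-0.86), with 599 ± 17.1 in differentiated cells and 1102 ± 58.4 in proliferating cells (SD, n = 3 each), and the groups did not overlap in either gene.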
